A study of Mus musculus with 18 samples.

Results

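Troponin and tropomyosin genes encode the calcium-sensitive regulatory proteins of the muscle thin filament. The 8 genes described here were chosen by symbol from a table of 24341 genes: the troponin I genes Tnni1 and Tnni3, the troponin T genes Tnnt1 and Tnnt2, the troponin C gene Tnnc1 and the tropomyosin genes Tpm1, Tpm2 and Tpm3. Each symbol matched 1 row. The balance between the paralogs of each family was described over 6 groups of mouse heart RNA sequencing libraries.

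The hearts came from C57BL/6 mice aged 12 weeks. One genotype was wild-type (WT), and the other carried a cardiac-specific knockout of Med13, labelled cKO. Med13 encodes a subunit of the kinase module of Mediator, the complex that links transcription factors to RNA polymerase II. The Cre driver behind the knockout was not given in the sources used here. In each genotype 1 group ate normal chow and 1 group ate a diet with propylthiouracil (PTU), a drug that blocks thyroid hormone synthesis, from 8 weeks of age for 4 weeks. The remaining group of each genotype ate the PTU diet for the same time and then received 3 daily injections of triiodothyronine (T3), the active thyroid hormone. Each of the 6 groups had 3 libraries of polyA RNA. The labels did not say that each library was a separate animal, so the p-values measure the spread between these libraries.

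As background, troponin C binds calcium, troponin I holds the filament off at low calcium, and troponin T ties both to tropomyosin, the coiled coil that covers the myosin-binding sites of actin. The slow skeletal troponin I gene Tnni1 is expressed in the fetal heart and is replaced by cardiac Tnni3 around and after birth. Tnnt2 and Tnnc1 encode cardiac troponin T and cardiac and slow skeletal troponin C, Tnnt1 encodes slow skeletal troponin T, and Tpm1 makes the main tropomyosin of the rodent heart. Thyroid hormone is known to set the balance of fetal and adult contractile isoforms in the rodent heart.

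Levels were given as FPKM, the number of sequenced fragments scaled to transcript length and to library size, which allows levels of different genes to be set side by side. Differences were tested with limma on log2(FPKM + 1) over all 12587 genes that reached 1 FPKM in at least 3 libraries, with Benjamini-Hochberg adjustment within each comparison. A gene is described as called when its adjusted p was under 0.05. Fold changes on this scale understate the change of genes near or below 1 FPKM. All 8 genes passed the filter. Gene-level FPKM does not separate splice forms, so the known alternative splicing of Tnnt2, Tpm1 and Tpm3 could not be seen. In these bulk samples fewer cells of a type and less RNA per cell cannot be told apart.

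Between 11677 and 12091 genes reached 1 FPKM per library, and replicates of a group correlated at 0.989 to 0.996 across genes. The absolute depth is unknown. Med13 measured 5.87 ± 0.596 FPKM in the WT libraries and 5.83 ± 0.713 FPKM in the libraries labelled cKO (SD, n = 9 each), so its gene-level value did not separate the genotypes. All 8 cardiomyocyte markers were present. The mean log2 level of 6 atrial markers ranged from 3.30 to 8.73 over the libraries, with wide spread inside groups. The 8 troponin and tropomyosin genes together held 3.83 to 5.10% of all FPKM of a library.

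Of the 8 genes, 4 lie in 2 tandem pairs of a troponin I and a troponin T gene, and the gene positions are in mouse build mm10. Tnni1 (chr1:135799421-135810989) and Tnnt2 (chr1:135836334-135852268) lie on the plus strand 25.3 kb apart. Tnnt1 (chr7:4504570-4515975) and Tnni3 (chr7:4518308-4522443) lie on the minus strand 2.33 kb apart. The remaining members stand alone: Tnnc1 at chr14:31208312-31211711 on the plus strand, Tpm1 at chr9:67022593-67049213 on the minus strand, Tpm2 at chr4:43513726-43523554 on the minus strand and Tpm3 at chr3:90072651-90100902 on the plus strand. The annotated exons of Tnni3 overlap those of Dnaaf3 on the same strand, and Tnnc1 overlaps Nisch on the other strand without shared exons. The annotation also names 2 further loci after Tpm3, as pseudogene or related sequence, so reads of Tpm3 could be split with them and its values are less certain.

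The bases just before the start sites are shown because the neighbours Tnni1 and Tnnt2 were both called higher on PTU in WT, and the neighbours Tnnt1 and Tnni3 were both called higher after T3 in cKO. Neither pair was called together in the other genotype. There, limma gave 0.10 for Tnnt2 in cKO on PTU (adjusted p = 0.792) and 0.31 for Tnni3 in WT after T3 against PTU (adjusted p = 0.281). Tnnc1 is added as a gene without such a neighbour. The bases were taken from RefSeq (GRCm38.p6) and read 5′ to 3′ on the strand of the gene, ending at the base before the RefSeq start. For Tnni3 that start lies 85 bases upstream of the gene start given above. Where an exon of another transcript of the same gene is annotated within the last 120 bases, only the last 30 bases are given. For Tnni3 such an exon is annotated farther upstream, so 120 bases are given. Capitals mark a TATAAA box or a muscle CAT (MCAT) element, CATTCC, which reads GGAATG on the other strand.
Tnni1, chr1:135799391-135799420, plus strand: agttgccggaggccacggttttcatagcct
Tnnt2, chr1:135836214-135836333, plus strand: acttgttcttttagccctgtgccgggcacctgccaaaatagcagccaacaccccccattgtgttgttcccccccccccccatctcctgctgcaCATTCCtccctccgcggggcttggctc
Tnnt1, chr7:4515976-4516005, minus strand: TATAAAtccagggggtgcgtcactgtcctc
Tnni3, chr7:4522529-4522648, minus strand: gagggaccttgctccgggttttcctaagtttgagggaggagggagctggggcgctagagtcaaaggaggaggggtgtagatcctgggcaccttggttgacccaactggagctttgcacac
Tnnc1, chr14:31208192-31208311, plus strand: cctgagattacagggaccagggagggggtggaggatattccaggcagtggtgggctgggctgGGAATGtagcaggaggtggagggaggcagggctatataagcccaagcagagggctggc

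All 8 genes had a start site in the RefSeq table, and 250 bases before each were searched on both strands. TATAAA was found in Tnnt1, from position -30 to -25 relative to the start, and in 13.0% of 27025 mouse promoters of that length. CATTCC was found in Tnnt2 from -27 to -22, in Tnnc1 from -58 to -53 and in Tpm1 from -56 to -51, and in 12.6% of promoters. The letters AGGTCA, the half-site bound by thyroid hormone receptors and related nuclear receptors, were found in Tpm3 from -227 to -222 and in 13.8% of promoters. Direct repeats of that half-site with a spacer of 4 bases, the MEF2 consensus and the CArG box were found in none of the 8 windows. A MEF2 consensus can hold TATAAA, and each direct repeat holds the half-site. These matches describe letters only.

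Among the 8 genes, Tnni1 was the minor troponin I gene. Its share was the lowest of the minor paralogs on chow and moved with the PTU diet. The fast skeletal form Tnni2, not 1 of the 8 genes, lay above Tnni1 in every chow and T3 library and below it in every PTU library. In WT on chow Tnni2 measured 2.14, 4.05 and 0.843 FPKM. The fetal and slow isoform Tnni1, nearly absent on chow, rose in both genotypes on the PTU diet and fell back after T3, while the cardiac isoform Tnni3 stayed the main form in every library. In WT libraries Tnni1 measured 0.402, 0.219 and 0.679 FPKM on chow, 14.2, 20.4 and 6.01 FPKM on PTU, and 0.824, 0.323 and 0.387 FPKM after T3. In cKO libraries it measured 0.219, 0.754 and 0.586 FPKM on chow, 7.71, 5.26 and 9.91 FPKM on PTU, and 0.266, 0.333 and 0.126 FPKM after T3. All 6 PTU libraries lay above all 12 others, with no overlap in either genotype. Over all tested genes, PTU and chow libraries did not overlap for 35.6% in WT and 32.4% in cKO. For T3 against PTU these shares were 50.7% and 55.4%. Within the WT PTU group the third library was the lowest and the second the highest.

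Mean Tnni1 on PTU was 31.25 times the chow mean in WT and 14.7 times in cKO, over chow levels under 1 FPKM. On the log2(FPKM + 1) scale Tnni1 rose by 3.21 ± 0.308 (SE, n = 3 libraries per group, adjusted p = 9.16e-06, limma) in WT on PTU. In cKO the rise was 2.49 ± 0.308 (adjusted p = 9.96e-05). After T3, Tnni1 fell by 3.14 in WT (adjusted p = 1.42e-06) and fell by 2.76 in cKO (adjusted p = 3.92e-06) against PTU. The PTU libraries serve both the comparison with chow and the comparison with T3, so the 2 differences are not independent. Against chow, the T3 groups differed by 0.07 in WT (adjusted p = 0.903) and by -0.28 in cKO (adjusted p = 0.571), neither of which was called.

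Tnni3, which encodes the adult cardiac inhibitory subunit, measured 6679, 7437 and 5131 FPKM in WT on chow, 6327, 4937 and 7262 FPKM on PTU, and 7514, 6140 and 9394 FPKM after T3. In cKO it measured 8369, 8467 and 5752 FPKM on chow, 4768, 3627 and 6008 FPKM on PTU, and 8196, 10072 and 7800 FPKM after T3. The 3 WT groups overlapped each other. In cKO all 3 T3 libraries lay above all 3 PTU libraries, and 55.4% of all tested genes likewise had no overlap there.

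No WT difference of Tnni3 was called (adjusted p = 0.894, 0.281 and 0.487 for PTU against chow, T3 against PTU and T3 against chow). In cKO it rose by 0.88 ± 0.225 after T3 against PTU (adjusted p = 0.00465), and the difference of PTU against chow was -0.66 (adjusted p = 0.0575). The latter was called without the third cKO chow library (-0.84, adjusted p = 0.0268) or the third cKO PTU library (-0.83, adjusted p = 0.0320). With quantile normalization the T3 difference in cKO was 0.22 and lost its call (adjusted p = 0.291). That method replaces each value by the mean over libraries of the values at its rank. At the top of the range, where Tnni3, Tnnt2, Tnnc1 and Tpm1 lie, its differences therefore follow steps of rank. The summed FPKM of all genes moved with the T3 difference of Tnni3 in cKO, at 551109 to 643609 in the cKO PTU libraries and 669532 to 766329 in the cKO T3 libraries. Over the 18 libraries, which share this total, the Pearson correlation of log2 Tnni3 with it was 0.943. The part of the total in the result was not tested.

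Tnni1 was also set as a share of the summed FPKM of Tnni1 and Tnni3 within a library, without Tnni2. The share averaged 0.00740% on chow, 0.239 ± 0.165% on PTU and 0.00678% after T3 in WT (SD, n = 3). The cKO means were 0.00723%, 0.157 ± 0.0106% and 0.00272%. The lowest PTU share, 0.0827%, exceeded the highest share of any other library, 0.0132%. Any scale common to a library cancels in these shares. Even on PTU the mean level of Tnni3 was 456.1 times that of Tnni1 in WT and 629.4 times in cKO, so the troponin I transcripts remained almost wholly cardiac.

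**Figure D1:**
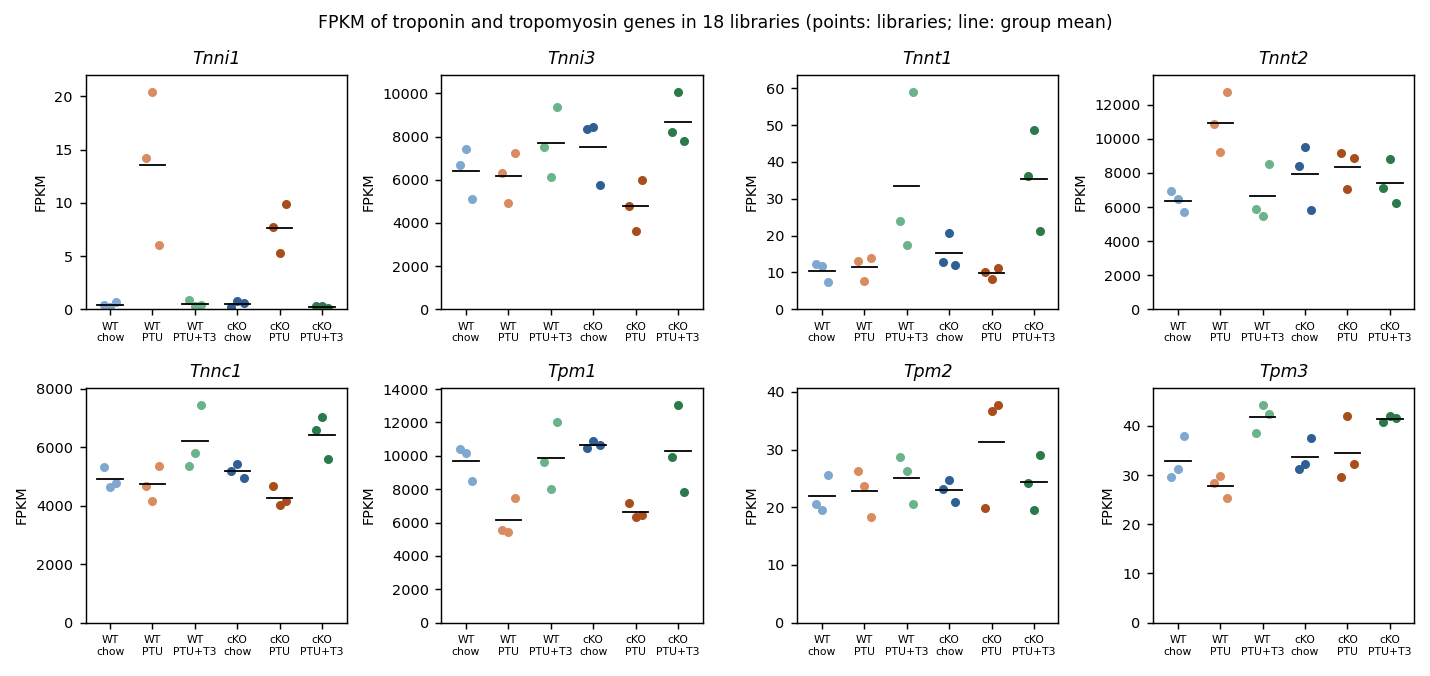
FPKM of each of the 8 genes (vertical axes) in the 18 libraries, by genotype and treatment (horizontal axis); points are libraries and lines are group means. Tnni1 was above 5 FPKM only in the 6 PTU libraries (5.26 to 20.4), and Tpm1 was lowest there (5457 to 7471).

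Troponin T moved in another way: the slow skeletal form Tnnt1 was highest after T3, and cardiac Tnnt2 was highest in WT on PTU. Tnnt1 measured 12.3, 11.7 and 7.36 FPKM in WT on chow, 13.0, 7.73 and 13.8 FPKM on PTU, and 23.8, 17.5 and 59.0 FPKM after T3. The cKO libraries gave 12.8, 20.7 and 12.1 FPKM on chow, 10.1, 8.11 and 11.3 FPKM on PTU, and 36.2, 48.7 and 21.1 FPKM after T3. In each genotype all 3 T3 libraries lay above the PTU and the chow libraries. Of all tested genes, 50.7% in WT and 55.4% in cKO had no overlap of T3 with PTU. For T3 against chow these shares were 31.4% and 41.7%. The third WT T3 library stood well above the other two.

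Against PTU, Tnnt1 rose after T3 by 1.31 ± 0.395 in WT (SE, adjusted p = 0.0151) and by 1.68 ± 0.395 in cKO (adjusted p = 0.00303). The T3 mean was 2.91 times the PTU mean in WT and 3.60 times in cKO. Against chow it rose by 1.43 in WT (adjusted p = 0.0270), and in cKO the difference was 1.13 (adjusted p = 0.0572). Without the third WT T3 library the WT differences were 0.82 against PTU (adjusted p = 0.0697) and 0.93 against chow (adjusted p = 0.107), and neither was called. Without the second WT PTU library the difference against PTU was 1.07 (adjusted p = 0.0677). Leaving out any single WT chow library also ended the call against chow (adjusted p = 0.0519, 0.0516 and 0.0957). In cKO the difference against chow was called without the second cKO chow library (1.36, adjusted p = 0.0495) or the third cKO T3 library (1.45, adjusted p = 0.0293), and also where the second or the third WT T3 library was left out of the shared spread (adjusted p = 0.0396 and 0.0164). Log2 Tnnt1 correlated with the summed FPKM of the library at 0.853. With quantile normalization the rises against PTU were 1.28 in WT (adjusted p = 0.0135) and 1.60 in cKO (adjusted p = 0.00317). The PTU diet itself gave no call for Tnnt1 in WT (adjusted p = 0.873) or cKO (adjusted p = 0.371).

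Tnnt2, the main troponin T gene of the heart, measured 6917, 6468 and 5730 FPKM in WT on chow, 10859, 9241 and 12757 FPKM on PTU, and 5907, 5478 and 8518 FPKM after T3. In cKO it measured 8405, 9550 and 5846 FPKM on chow, 9192, 7036 and 8893 FPKM on PTU, and 7135, 8796 and 6234 FPKM after T3. The WT PTU libraries lay above the other WT libraries, whereas the 3 cKO groups overlapped. In WT, 35.6% of all tested genes had no overlap of PTU with chow, and 50.7% had none of T3 with PTU.

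In WT, Tnnt2 rose by 0.77 ± 0.208 on PTU (SE, adjusted p = 0.0183) and fell by 0.74 after T3 (adjusted p = 0.00924). The call on PTU was lost without the third WT chow library (adjusted p = 0.0677), the first WT PTU library (adjusted p = 0.0531) or the third WT PTU library (adjusted p = 0.0754). In cKO the differences were 0.10 on PTU (adjusted p = 0.792) and -0.19 after T3 (adjusted p = 0.489). With quantile normalization both cKO differences were called, at 0.81 (adjusted p = 8.41e-06) and -0.92 (adjusted p = 2.60e-07). These values follow the rank of Tnnt2 among the most abundant genes and are not rescaled fold changes. The absence of a call in cKO was thus not kept under every method. The interaction of PTU with genotype for Tnnt2 was -0.68 (adjusted p = 0.764, limma), and was not called.

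The share of Tnnt1 in the troponin T FPKM was lower on PTU than on chow and highest after T3. It averaged 0.162 ± 0.0296% on chow, 0.104 ± 0.0183% on PTU and 0.470 ± 0.194% after T3 in WT (SD, n = 3). The cKO means were 0.192 ± 0.0344%, 0.117 ± 0.00875% and 0.465 ± 0.112%. Over both genotypes the PTU libraries reached at most 0.127%, the chow libraries ran from 0.128 to 0.216%, and every T3 library had at least 0.319%. The PTU and chow ranges were separate by a narrow margin. The mean level of Tnnt2 was 198.3 times (WT after T3) to 951.8 times (WT on PTU) that of Tnnt1.

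**Figure D2:**
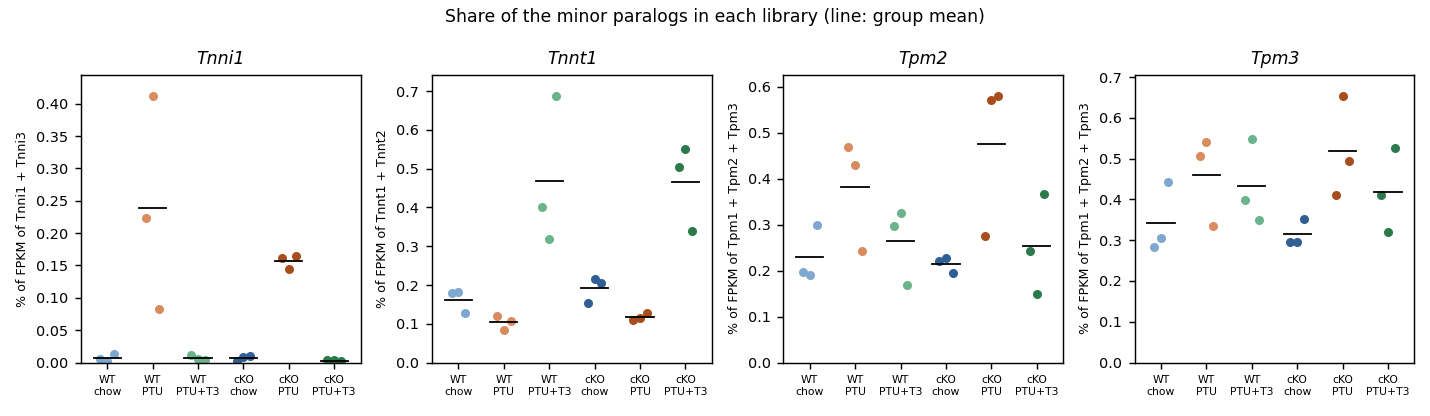
Share of each minor paralog in the FPKM of its family (percent, vertical axes) in the 18 libraries, by group; points are libraries and lines are group means. The share of Tnni1 was highest on PTU (0.0827 to 0.412%) and that of Tnnt1 was highest after T3 (0.319 to 0.688%).

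Troponin C comes in this tissue from Tnnc1, the calcium sensor of cardiac and slow muscle. It measured 5321, 4630 and 4775 FPKM in WT on chow, 4652, 4167 and 5347 FPKM on PTU, and 5363, 5794 and 7430 FPKM after T3. In cKO the level was 5167, 5408 and 4948 FPKM on chow, 4656, 4017 and 4146 FPKM on PTU, and 6579, 7040 and 5603 FPKM after T3. All 6 T3 libraries lay above all 6 PTU libraries, in WT by a narrow margin (5363 against 5347 FPKM). Between these groups 50.7% of all tested genes in WT and 55.4% in cKO had no overlap.

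After T3, Tnnc1 rose against PTU by 0.39 ± 0.139 in WT (SE, adjusted p = 0.0339) and by 0.58 ± 0.139 in cKO (adjusted p = 0.00283). Neither call held with quantile normalization, which gave -0.00 in WT (adjusted p = 0.983) and -0.08 in cKO (adjusted p = 0.576). For a gene as abundant as Tnnc1 that method follows rank, so it cannot show whether the level moved. The WT call was also lost without the first WT PTU library (adjusted p = 0.0800), the second WT PTU library (adjusted p = 0.135) or the third WT T3 library (adjusted p = 0.165). Log2 Tnnc1 correlated with the summed FPKM of the library at 0.810 over the 18 libraries, and the part of that total in the result was not tested. On PTU against chow, Tnnc1 gave -0.06 in WT (adjusted p = 0.807) and -0.28 in cKO (adjusted p = 0.189). With quantile normalization the WT difference turned to 0.31 and was called (adjusted p = 0.0468).

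Among the tropomyosins, Tpm1 fell on PTU and rose after T3 in both genotypes. It measured 10430, 10171 and 8488 FPKM in WT on chow, 5555, 5457 and 7471 FPKM on PTU, and 9605, 7998 and 12056 FPKM after T3. In cKO it measured 10446, 10890 and 10655 FPKM on chow, 7152, 6340 and 6428 FPKM on PTU, and 9907, 13035 and 7848 FPKM after T3. All 6 PTU libraries lay below all 12 others, and the chow and T3 groups overlapped. PTU and chow had no overlap for 35.6% of all tested genes in WT and 32.4% in cKO. For T3 against PTU these shares were 50.7% and 55.4%.

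On PTU, Tpm1 fell by 0.66 in WT (SE 0.186, adjusted p = 0.0223) and fell by 0.69 in cKO (adjusted p = 0.0207). After T3 it rose by 0.68 in WT (adjusted p = 0.00784) and by 0.60 in cKO (adjusted p = 0.0147). With quantile normalization the fall on PTU remained called in WT at -0.45 (adjusted p = 0.0203), and was -0.29 in cKO (adjusted p = 0.129). The same scaling gave 0.31 after T3 in WT (adjusted p = 0.0561) and -0.03 in cKO (adjusted p = 0.847). The PTU calls were lost without any 1 of 4 libraries in each genotype: the first or second WT chow or WT PTU library (adjusted p = 0.0675 to 0.0854), and the first or second cKO chow or the second cKO PTU or the third cKO PTU library (adjusted p = 0.0507 to 0.0621). The T3 call in cKO was lost without the second cKO T3 library (0.41, adjusted p = 0.0926). Over the 18 libraries the Pearson correlation of log2 Tpm1 with the summed FPKM of the library was 0.657. The part of that total in these results was not tested.

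Tpm2, the beta-tropomyosin gene, used mainly in skeletal muscle, was low in all groups. It measured 20.6, 19.5 and 25.6 FPKM in WT on chow, 26.3, 23.7 and 18.3 FPKM on PTU, and 28.6, 26.2 and 20.5 FPKM after T3. Levels in cKO were 23.2, 24.8 and 20.9 FPKM on chow, 19.8, 36.7 and 37.7 FPKM on PTU, and 24.2, 19.6 and 29.1 FPKM after T3. All groups overlapped, with 2 of the 3 cKO PTU libraries above every other library, and no difference was called. Without the first cKO PTU library, cKO gave 0.68 on PTU (adjusted p = 0.0282) and -0.61 after T3 (adjusted p = 0.0136), both called.

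Tpm3, whose products include slow skeletal and non-muscle tropomyosins, measured 29.6, 31.1 and 37.9 FPKM in WT on chow, 28.3, 29.8 and 25.2 FPKM on PTU, and 38.5, 44.2 and 42.4 FPKM after T3. In cKO it measured 31.2, 32.2 and 37.6 FPKM on chow, 29.6, 42.0 and 32.1 FPKM on PTU, and 40.9, 42.0 and 41.7 FPKM after T3. All 6 T3 libraries lay above all 6 chow libraries, and 1 cKO PTU library reached the T3 level. Between T3 and chow, 31.4% of all tested genes in WT and 41.7% in cKO had no overlap.

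Tpm3 rose after T3 against PTU by 0.57 ± 0.121 in WT (SE, adjusted p = 0.00128). In cKO the difference was 0.27 (adjusted p = 0.0751), and without the second cKO PTU library it was 0.42 and called (adjusted p = 0.00703). Against chow the T3 differences were 0.34 in WT (adjusted p = 0.0696) and 0.30 in cKO (adjusted p = 0.0916). Without the third WT chow library the WT difference was called (0.44, adjusted p = 0.0366), and leaving the second cKO PTU library out of the shared spread called both (adjusted p = 0.0314 and 0.0438). Of 7 smooth muscle markers, all present, Acta2 measured 38.7 to 86.0 FPKM in WT on PTU and 363 to 565 FPKM after T3, and 71.5 to 123 and 229 to 394 FPKM in cKO. The other 6 summed to 102 to 130 FPKM on PTU and 78.8 to 146 FPKM after T3 in WT, and to 109 to 137 and 85.4 to 108 FPKM in cKO, so without Acta2 the ranges overlapped in WT and were lower after T3 in cKO. The sum of 5 macrophage markers, all present, was 50.4 to 79.6 in WT on PTU and 151 to 206 after T3, and 57.3 to 149 and 148 to 177 in cKO. The part of macrophages in the rise of Tpm3 was not tested.

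Tpm1 made up 98.8 to 99.5% of the FPKM of the 3 tropomyosins in every library. The mean share of Tpm2 was 0.229% on chow, 0.381% on PTU and 0.264% after T3 in WT, and 0.214%, 0.476% and 0.253% in cKO. That of Tpm3 was 0.343%, 0.460% and 0.432% in WT and 0.314%, 0.520% and 0.419% in cKO. The WT groups overlapped for both genes. In cKO the lowest PTU shares, 0.275% of Tpm2 and 0.411% of Tpm3, exceeded the highest chow shares, 0.226% and 0.351%, while Tpm1 itself was lower there.

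Ratios among the abundant genes within a library cancel any common scale; they were chosen after the values were seen and carry no test. Tnnt2 over Tpm1 was 0.658 ± 0.0201 on chow, 1.79 ± 0.147 on PTU and 0.669 ± 0.0479 after T3 in WT (SD, n = 3). In cKO it was 0.743 ± 0.173, 1.26 ± 0.139 and 0.730 ± 0.0603. Every PTU library of either genotype had a ratio of at least 1.11 and every other library at most 0.877. On PTU the WT ratios (1.69 to 1.95) lay above the cKO ratios (1.11 to 1.38), and this difference was not tested.

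Tnnt2 over Tnni3 rested at 1.01 ± 0.126, 1.78 ± 0.0806 and 0.862 ± 0.0658 in WT and 1.05 ± 0.0682, 1.78 ± 0.262 and 0.848 ± 0.0420 in cKO, in the same order. The PTU libraries had at least 1.48 and all others at most 1.13, in both genotypes. Tnnt2 over Tnnc1 was 1.30, 2.31 and 1.06 in WT and 1.52, 1.96 and 1.15 in cKO, where the chow and PTU libraries overlapped by a small margin (highest chow 1.77, lowest PTU 1.75). Tnni3 over Tnnc1 overlapped between all groups of each genotype, with means of 1.13 to 1.45. Tpm1 over Tnnc1 was 1.98, 1.30 and 1.60 in WT and 2.06, 1.55 and 1.59 in cKO, so in cKO it was lower on PTU than on chow but about the same after T3. Tpm1 over Tnni3 was 1.53, 1.004 and 1.29 in WT, where the 3 PTU libraries (0.878 to 1.11) lay below the 6 others (1.28 to 1.65). In cKO it was 1.46, 1.44 and 1.17, and the PTU libraries overlapped both other groups. Relative to Tnni3, Tpm1 was therefore not set apart on PTU in cKO. The ratios of Tnnt2 to Tpm1 and to Tnni3 were thus higher on PTU in both genotypes, also in cKO, where the FPKM of Tnnt2 itself was not called. There the log2 change on PTU was 0.10 for Tnnt2, beside -0.69 for Tpm1, which was called, and -0.66 for Tnni3, which was not. The higher ratios in cKO therefore do not show a rise of Tnnt2.

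**Figure D3:**
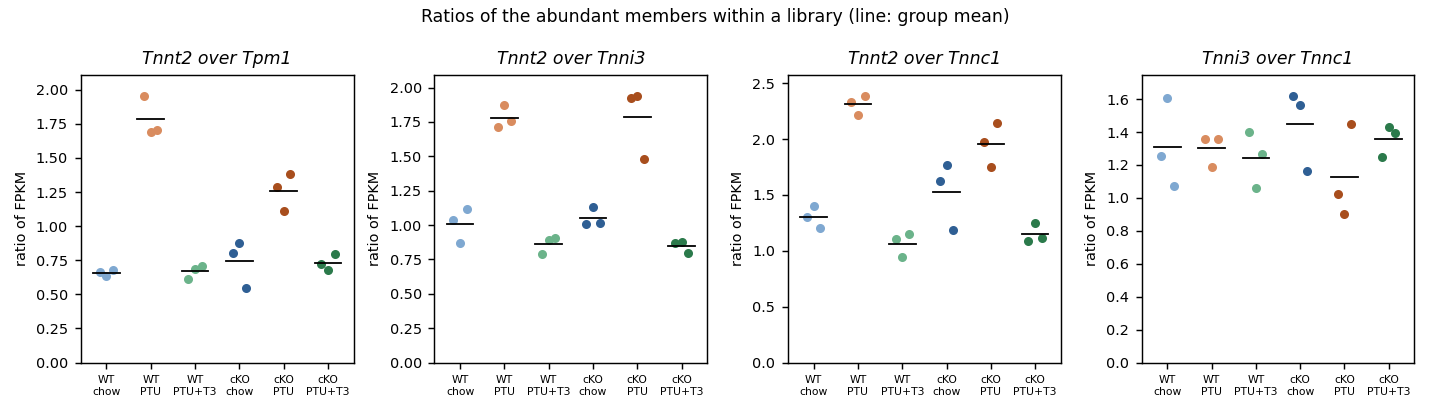
Ratios of FPKM between abundant thin filament genes within each library (vertical axes), by group; points are libraries and lines are group means. Tnnt2 over Tpm1 was 1.11 to 1.95 in the 6 PTU libraries and 0.549 to 0.877 in the 12 others.

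Counted over the 8 genes, the PTU diet in WT gave 3 calls against a background of 16.8% of all tested genes. Of these, Tnni1 and Tnnt2 were higher (8.02% of all genes were called higher) and Tpm1 was lower (8.76%). T3 against PTU in WT gave 6 calls against a background of 44.1%. Tnnt1, Tnnc1, Tpm1 and Tpm3 were higher (background 22.3%) and Tnni1 and Tnnt2 were lower (21.8%). T3 against chow in WT called Tnnt1 alone, higher, against a background of 14.7%, with 7.68% higher and 7% lower.

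In cKO the PTU diet gave 2 calls against a background of 16%, Tnni1 higher (6.44%) and Tpm1 lower (9.59%). T3 against PTU gave 5 calls against 46.7%, with Tnni3, Tnnt1, Tnnc1 and Tpm1 higher (24.9%) and Tnni1 lower (21.8%). No member was called for T3 against chow in cKO, where 20.9% of genes were called, 11.7% higher and 9.15% lower. There, 3 members had an unadjusted p under 0.05 (Tnnc1, Tnnt1 and Tpm3), beside 33.8% of all genes. With so large a share of all genes called after T3 against PTU, these counts are not particular to the 8 genes.

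Leaving out the library with the highest atrial marker level of each group, which left 2 per group, ended several of these calls. In WT on PTU these were Tnnt2 (0.70, adjusted p = 0.174) and Tpm1 (-0.69, adjusted p = 0.129). In WT after T3 against PTU they were Tnnt2 (-0.67, adjusted p = 0.0905), Tnnc1 (0.48, adjusted p = 0.0951) and Tpm1 (0.62, adjusted p = 0.0732), and against chow Tnnt1 (1.36, adjusted p = 0.148). In cKO they were Tpm1 on PTU (-0.65, adjusted p = 0.152) and, after T3 against PTU, Tnnt1 (1.51, adjusted p = 0.0519), Tnnc1 (0.49, adjusted p = 0.0869) and Tpm1 (0.39, adjusted p = 0.240). Apart from Tpm1 after T3 in cKO, which was 0.60 with all libraries, these log2 changes stayed near their values with all libraries, while the fit had fewer libraries. Fitting the compared WT groups alone also ended the calls of Tnnt1 after T3 (adjusted p = 0.0900 against PTU and 0.132 against chow) and of Tnnc1 (adjusted p = 0.145).

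Between genotypes, no gene was called at matched treatment, neither a member nor any of the 12587 tested (background 0% on chow, 0% on PTU and 0% after T3). The 2 interactions of genotype with PTU and with T3 likewise called 0% of genes. At an unadjusted p under 0.05 limma gave 394, 491 and 434 genes for genotype on chow, on PTU and after T3. These were 3.13%, 3.9% and 3.45% of all tested genes. For the interactions it gave 805 and 821 genes, or 6.4% and 6.52%. Members with such an unadjusted p were Tpm3 on PTU (0.29 higher in cKO, adjusted p = 0.911) and Tnnt2 for the PTU interaction. For Tnni1 the PTU interaction was -0.73 ± 0.436 (SE, adjusted p = 0.803), so the smaller rise in cKO was not called as different.

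**Figure D4:**
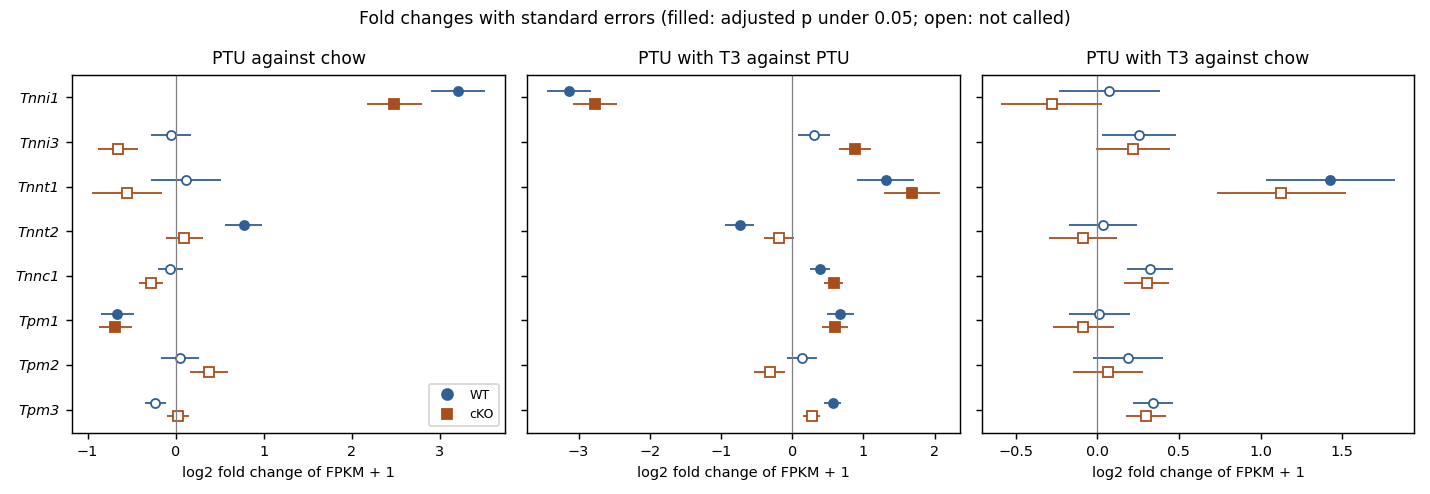
Log2 fold change of FPKM + 1 (horizontal axes) with its standard error for the 8 genes (rows) in 3 treatment comparisons, WT as circles and cKO as squares; filled symbols were called at adjusted p under 0.05. Tnni1 lies farthest from 0 in the comparisons with PTU (3.21 and -3.14 in WT), and of the 16 values for T3 against chow only Tnnt1 in WT was called.

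The other genes of these families were the fast skeletal forms Tnni2, Tnnt3 and Tnnc2 and the non-muscle tropomyosin Tpm4. None was called on PTU against chow in either genotype. After T3 against PTU, Tnni2 rose by 2.08 in WT (adjusted p = 0.0107) and by 2.73 in cKO (adjusted p = 0.00172). Its mean level was 1.28 FPKM on PTU and 8.80 FPKM after T3 in WT, and 0.793 and 12.7 FPKM in cKO. Tnnt3 rose by 1.11 in WT (adjusted p = 0.0415), where its 3 T3 libraries ran from 0.581 to 6.61 FPKM. Tpm4 rose by 0.84 in WT (adjusted p = 0.000136) and by 0.56 in cKO (adjusted p = 0.00331), from means of 58.1 and 65.3 FPKM to 106 and 95.3 FPKM. Tnnc2 did not pass the filter and reached at most 0.677 FPKM.

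Of 10 fast skeletal muscle markers, 3 were the troponins Tnni2, Tnnt3 and Tnnc2. The other 7 summed to 1.44 to 2.92 FPKM on PTU and 2.73 to 3.47 FPKM after T3 in WT, and to 1.81 to 2.75 and 2.27 to 4.25 FPKM in cKO. These ranges overlapped in both genotypes, beside the rises of Tnnt1 and Tnni2. Myh4, the gene of the fastest myosin heavy chain, was listed at the lowest value of the table, 0.01 FPKM, in all 18 libraries, and Myh1, Myh2, Tnnc2 and Actn3 stayed below 1 FPKM in all. The part of such cells in these results was not tested.

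Of 16 other thin filament genes, 15 were tested. On PTU 0 rose and 6 fell in WT (median log2 change -0.13, beside -0.00 over all genes), and the same numbers were found in cKO (median -0.45). Over all genes 8.76% in WT and 9.59% in cKO were called lower. Without the atrial-high library of each group 4 of the 15 fell in WT and 1 in cKO. The 3 largest falls in WT were in the actin genes Acta1 (fell by 3.43, adjusted p = 0.00244), Acta2 (fell by 1.85, adjusted p = 0.00105) and cardiac Actc1 (fell by 1.10, adjusted p = 0.000541). After T3 against PTU 5 rose and 2 fell in WT (median 0.25) and 7 rose and 2 fell in cKO (median 0.62). Over all genes 22.3% were called higher and 21.8% lower in WT, and 24.9% and 21.8% in cKO. Acta1 rose by 4.02 (adjusted p = 0.000168), Acta2 by 2.98 (adjusted p = 2.91e-06) and Actc1 by 1.88 (adjusted p = 5.98e-07) in WT. Against chow, 2 rose and 1 fell in WT after T3: Acta2 (1.14, adjusted p = 0.0241), Actc1 (0.78, adjusted p = 0.00782) and the filament-end protein gene Lmod2 (-0.52, adjusted p = 0.0150). In cKO the same comparison gave 4 that rose and 1 that fell. The shares of all genes called higher and lower against chow were 7.68% and 7% in WT, and 11.7% and 9.15% in cKO. Acta2 is also 1 of the 7 smooth muscle markers. In WT, Tpm1 moved in the same direction as these actin genes on PTU and after T3 against PTU, and Tnnt2 in the opposite one.

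The 7 slow muscle contractile genes did not move together. On PTU 2 rose and 2 fell in WT, and 1 rose and 2 fell in cKO, where 16.8% and 16% of all tested genes were called. In WT the slow myosin heavy chain gene Myh7 rose by 4.53 (adjusted p = 4.30e-08), Myh7b rose by 0.77 (adjusted p = 0.0490), and the Z-disc gene Myoz2 fell by 0.72 (adjusted p = 0.00285). After T3 against PTU 3 rose and 3 fell in WT, and 4 rose and 2 fell in cKO. Of all tested genes 44.1% in WT and 46.7% in cKO were called in this comparison. Myh7 fell by 3.99 (adjusted p = 1.50e-08), Myh7b fell by 2.44 (adjusted p = 2.80e-06) and Myoz2 rose by 1.17 (adjusted p = 8.77e-06) in WT. Against chow, Myh7b fell by 1.67 (adjusted p = 0.000848) and Myoz2 rose by 0.45 (adjusted p = 0.0418). Of the slow skeletal troponin I and T genes, Tnni1 followed the direction of Myh7, and Tnnt1 did not. Tnnc1 and Tpm3, whose products also serve slow muscle, rose after T3 against PTU in WT (0.39 and 0.57), where Myh7 fell. The call of Tnnc1 did not hold with quantile normalization.

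Likeness of pattern was measured as the Pearson correlation of log2(FPKM + 1) over the 18 libraries, which share treatments and totals, and is given as a description. The genes most like Tnni1 were Spata24 (0.966), Maged1 (0.951) and Igfbp3 (0.949), the last encoding a binding protein of insulin-like growth factors. Tnni3 was most like Etfb (0.975), Ndufs7 (0.973) and Hadh (0.973), genes of mitochondrial electron transfer and fatty acid oxidation. Tnnt1 was most like Aarsd1 (0.953), the proteasome subunit gene Psmb6 (0.951) and the mitochondrial ribosomal protein gene Mrps26 (0.945). For Tnnt2 these were Grb14 (0.943), the ventricular myosin light chain gene Myl2 (0.925) and Bzw2 (0.912).

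For Tnnc1 they were the initiation factor gene Eif2s1 (0.944), Ak3 (0.929) and the mitochondrial pyruvate carrier gene Mpc1 (0.928). Tpm1 was most like Mylk4 (0.944), Ifngr2 (0.927) and Lims2 (0.917), and Tpm3 most like the blood cell GTPase gene Rac2 (0.947), Sh3bgrl3 (0.943) and the non-muscle myosin light chain gene Myl6 (0.939). Tpm2 had weaker partners, Heph (0.778), Cbr3 (0.746) and Cep57l1 (0.739). Among the members, Tnnt1 correlated with Tnnc1 at 0.925 and with its neighbour Tnni3 at 0.809. Tnni1 correlated with Tpm1 at -0.856 and with its neighbour Tnnt2 at 0.611.

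The authors' deposited tables of pairwise tests name the same groups. At q under 0.05 the authors' deposited table of WT on chow against WT on PTU called Tnni1 (q = 0.000771) among the members. The authors' deposited table of WT on chow against WT after T3 called Tnnt1 (q = 0.00109). The authors' deposited table of WT on PTU against WT after T3 called Tnni1, Tnnt1 and Tpm3 (q = 0.000340, 0.000340 and 0.00142). Tnnt2 and Tpm1, called here on PTU in WT, had q = 0.122 and 0.176 in the authors' deposited table. Tnnt2, Tpm1 and Tnnc1, called here after T3 against PTU in WT, had q = 0.0890, 0.0986 and 0.198 there. No member had q under 0.05 in the authors' deposited genotype tables, where the lowest was 0.0646, for Tnni1 on PTU. The authors did not test Tnni1 between genotypes on chow or after T3, or between WT on chow and WT after T3.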

How the data were processed

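PolyA RNA libraries of 18 mouse heart samples were analysed from 1 table of FPKM values that the authors deposited, with gene symbols and mm10 positions. The submitters' processing notes name Bowtie2 and Cufflinks. No annotation version or Cufflinks setting was given in the sources used here. Comparison tables deposited by the authors also give FPKM group values and p-values and q-values, which were copied without change. Groups came from the genotype and treatment labels, with 3 libraries each. The 8 members, the lists and the promoter letters were chosen with earlier results of these data known.

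The 2 genes with 5 failed estimates were left out. FPKM was put on the log2 scale with a pseudocount of 1, genes with at least 1 FPKM in 3 libraries were kept (12587 of 24341), and 6 group means were fitted with limma 3.58.1 in R 4.3.3 (trended, robust prior, 12 residual degrees of freedom). Benjamini-Hochberg adjustment was made within each of 11 comparisons. The code was tested on simulated data. The depth of FPKM tables is unknown, so no counting intervals are given. Isoform shares and ratios were computed within a library from FPKM, with no test. Named genes were the 8 members, Med13, the other family members, the 3 largest called changes of each list in each WT comparison, and the 3 genes best correlated with each member. Alternatives were another pseudocount, no filter, quantile normalization, median-of-ratios scaling, array weights, a constant prior, the compared groups alone, 1 more paralog in the shares, and leaving out each library or the library with the highest atrial marker level of each group.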

Additional observations from a re-analysis of the deposited data

How the results depend on the processing

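Each fold change of a member was recomputed under 26 alternatives, 2288 values in all. Of these, 2154 kept their sign and their side of the threshold, 37 lost a call, 21 gained one, and 72 changed sign without being called in either fit, 12 of them with quantile normalization. Another 4 changed sign where 1 of the 2 fits called them. These 4 all came with quantile normalization: Tnnc1 in WT on PTU (0.31, called) and after T3 against PTU (-0.0037), and in cKO after T3 against PTU Tnnc1 (-0.075) and Tpm1 (-0.034). Both genes are among the most abundant, where that method follows steps of rank. The calls of Tnni1 on PTU and after T3 against PTU held under every alternative in both genotypes, as did that of Tpm3 for T3 against PTU in WT. Without the library of highest atrial level in each group, which leaves 2 per group, members called numbered 1 for PTU and 3 for T3 against PTU in WT, 0 for T3 against chow in WT, and 1 for PTU and 2 for T3 against PTU in cKO. Quantile normalization left 3 members called for T3 against PTU in cKO. For T3 against chow, the compared groups alone gave 0 in WT and 1 in cKO, array weights gave 2 in WT and 2 in cKO, and a constant prior gave 1 in cKO. Leaving out single libraries gave 1 to 3 members for PTU in WT, 0 to 2 for T3 against chow in WT, 1 to 3 for PTU in cKO and 0 to 1 for T3 against chow in cKO. The cause was not tested in these cases, beyond the fewer libraries of the reduced fits. With Tpm4 added to the tropomyosin sum, the mean share of Tpm1 was 98.68%, 98.23% and 98.21% in WT on chow, on PTU and after T3, and 98.80%, 98.04% and 98.38% in cKO.

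Over all genes, calls ranged from 662 to 3438 for PTU in WT (2111 in the design given above), 722 to 1974 for T3 against chow in WT (1848), 517 to 2653 for PTU in cKO (2017) and 863 to 3487 for T3 against chow in cKO (2629). Each lowest count came without the atrial-high libraries and each highest with array weights. For T3 against PTU they ranged from 3978 to 5722 in WT (5545) and from 4085 to 6292 in cKO (5877). The genotype and interaction comparisons reached at most 4 genes, without the filter on low values. No paired analysis was possible because the labels carry no replicate numbers shared between groups. Absolute depth is unknown, which limits what can be said of Tnni1 below 1 FPKM.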
